A study of Homo sapiens with 8 samples.

Results

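MAP3K7 and 8 genes that act with it on the path from TAK1 to NF-kB were followed at the level of single splice junctions and of whole genes. The 9 genes were taken by name: MAP3K7, its partners TAB1, TAB2 and TAB3, the NF-kB subunits NFKB1, NFKB2 and RELA, the inhibitor NFKBIA and the target CXCL8. They were 9 of 21212 genes with reads over annotated introns, and held 421 of the 860791 junctions of the series, assigned by GENCODE release 29 introns and splice sites. The data were counts of uniquely mapped reads across splice junctions in total RNA of K562, an established human erythroleukaemia line. The cells carried SF3B1 with the K700E substitution or as wild type (WT), and all groups, WT included, received doxycycline at 1 µg/ml to induce the modified allele. The 4 groups were K700E at day 4, WT at day 4, K700E at day 8 and WT at day 8, with 2 libraries each. The number of clones behind each genotype is not given in the sources used here, nor whether replicates were separate cultures, so p-values measure only the spread between these libraries, which may be technical.

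TAK1, the kinase encoded by MAP3K7, is switched on downstream of TNF, interleukin-1 and Toll-like receptors by TAB1, which activates it, and by TAB2 or TAB3, which bind ubiquitin chains. It phosphorylates the IκB kinase complex and the kinases above JNK and p38. The IκB kinase marks IκBα, the product of NFKBIA, for destruction and so frees dimers of p65 (RELA) and p50 (NFKB1), while p52 from NFKB2 serves the non-canonical arm. NFKBIA and CXCL8, which encodes interleukin-8, are themselves NF-kB targets. SF3B1 is part of the U2 snRNP, which recognises the branch point, and its K700E form is known for using cryptic 3′ splice sites (acceptors) a short way upstream of the reference ones.

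In MAP3K7 (ENSG00000135341.17, chr6:90513573-90587045 on hg38, minus strand), the cryptic acceptor lies 20 nt upstream of exon 5, in intron 4. Its junction spans chr6:90560235-90561621 and is not in GENCODE release 29, and the reference junction from the same donor spans chr6:90560215-90561621. Exon 4 (chr6:90561622-90561667, 46 nt) and exon 5 (chr6:90560076-90560214, 139 nt) are coding in the 17-exon transcript ENST00000369329.7. The sequences of the joined exon ends are shown because reads of the reference junction join them directly and reads of the cryptic junction carry 20 extra bases between them. Capitals mark the codon that the intron splits. Since 20 is not a multiple of 3, the added bases shift the reading frame.
MAP3K7 exon 4: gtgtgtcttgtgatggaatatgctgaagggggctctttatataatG
MAP3K7 exon 5, first 60 nt: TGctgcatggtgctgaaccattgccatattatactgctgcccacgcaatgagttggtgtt
Both are from the GENCODE release 29 transcripts, minus strand, and the second covers chr6:90560155-90560214. The 20 bases themselves are intronic and are not shown.

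The cryptic acceptor took most reads of the exon 4 donor in the K700E libraries at day 4 and a small share in the WT libraries. It had 307 of 485 and 157 of 273 donor reads in K700E, and 50 of 409 and 41 of 432 in WT. Its use was 63.3% (95% Wilson interval 58.9% to 67.5%) and 57.5% (51.6% to 63.2%) in K700E, against 12.2% (9.40% to 15.8%) and 9.49% (7.07% to 12.6%) in WT. The groups were far apart compared with the spread within them. These intervals cover counting error only. The mean was 60.4% ± 4.09 in K700E and 10.9% ± 1.93 in WT (SD, n = 2 each), a difference of 49.5 points with an adjusted p of 0.00169 (edgeR quasi-likelihood junction test, Benjamini-Hochberg over 69838 junctions). The longest overhang on either side of a read at the cryptic junction was 73 nt, and it had no multi-mapped read in any library.

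The reads behind the reference acceptor moved the other way. In CPM, junction reads scaled to the library's total gene reads and TMM factors, the cryptic junction had 4.24 and 2.59 in K700E and 0.945 and 0.663 in WT at day 4. The reference junction had 2.46 and 1.92 CPM in K700E and 6.73 and 6.33 in WT. The total of the donor was 6.69 and 4.51 CPM in K700E and 7.73 and 6.99 in WT, lower in both K700E libraries. The share of the reference acceptor was lower by 49.2 points on the same donor, and it missed the threshold with edgeR (adjusted p 0.0565) and passed it with limma (adjusted p 0.000354). The cryptic junction passed with limma at the same value. No other junction of this donor was tested, so the shares nearly mirror each other and are not separate results.

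The call rested on both WT libraries. Without WT day 4 replicate 1 the difference was 50.9 points with an edgeR adjusted p of 0.163, and without WT day 4 replicate 2 it was 48.2 points with an adjusted p of 0.317. With all 8 libraries in 1 model the day 4 difference was 49.5 points with an adjusted p of 1. Of 58 member junctions tested for acceptor choice at day 4, the cryptic one was the only one called with edgeR, where 0.467% of all junctions tested were called. In the same direction 0.358% of all junctions were called. Of 44 member junctions tested for donor choice, 0 were called by edgeR or limma and 4 had an unadjusted p under 0.05, against 0.0309% called (0.125% with limma) and 5.65% unadjusted over all junctions. limma called 0.422% of junctions for acceptor choice. Its 2 member calls were the cryptic and reference junctions, which share 1 donor and are not separate results. For acceptor choice 9 of the 58 member junctions, in MAP3K7, NFKB2 and RELA, had an unadjusted p under 0.05, against 7.02% of all junctions.

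**Figure D1:**
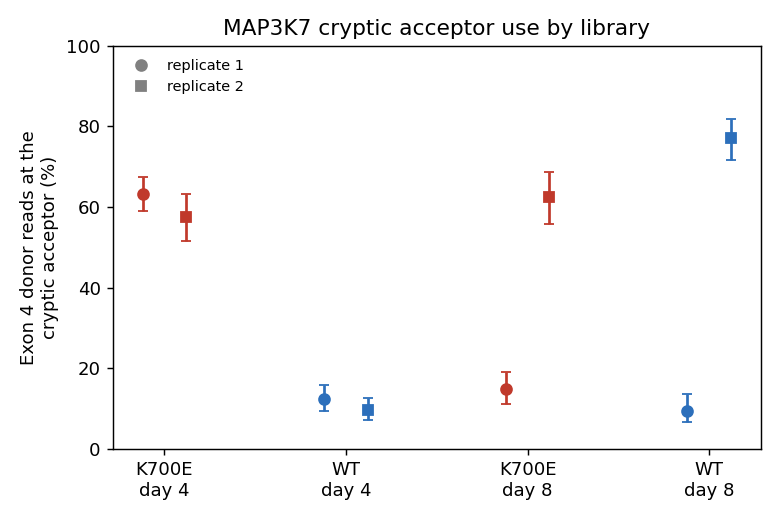
Share of exon 4 donor reads of MAP3K7 that used the cryptic acceptor (y axis, percent) in each of the 8 libraries by labelled group (x axis). Points are libraries, with circles for replicate 1 and squares for replicate 2, and bars are 95% Wilson intervals. At day 4 both K700E libraries are above 57% and both WT libraries below 13%, and at day 8 each labelled group holds 1 high and 1 low library.

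At day 8, 2 of the 4 libraries went against their labels: the one labelled K700E replicate 1 had low use and the one labelled WT replicate 2 high use, while the other 2 had use like the day 4 libraries of their genotype. Whether the files of these 2 libraries were exchanged was not tested. Every day 8 value, mean of both days and day difference below takes the labels as given, and would differ if they were. Cryptic use was 14.7% (11.2% to 19.1%) and 62.4% (55.7% to 68.7%) in the libraries labelled K700E, and 9.42% (6.51% to 13.4%) and 77.2% (71.7% to 81.9%) in those labelled WT. The highest and the lowest values of the series were thus both in libraries labelled WT at day 8. The mean was 38.5% ± 33.7 in the libraries labelled K700E and 43.3% ± 47.9 in those labelled WT (SD, n = 2 each), a difference of -4.78 points (edgeR adjusted p 1.00). It was 29.1 points without the library labelled WT replicate 2 and 19.1 points without the one labelled K700E replicate 1. Over both days the difference was 22.4 points (unadjusted p 0.158), and the day 8 difference minus the day 4 difference was -54.3 points (unadjusted p 0.0319, edgeR adjusted p 0.766). Without the library labelled WT day 8 replicate 2 the mean of both days was 39.3 points with an adjusted p of 0.0724.

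Other known SF3B1 hotspot targets showed the same division of libraries. Over 21 of 22 listed genes, the median use of the most used acceptor 10 to 30 nt upstream of the reference was 22.3% and 20.3% in K700E and 1.44% and 1.84% in WT at day 4. Day 8 gave medians of 2.39% and 17.6% in libraries labelled K700E and 0% and 21.6% in those labelled WT. SF3B1 itself had 720 and 704 CPM in K700E and 755 and 656 CPM in WT at day 4 (log2 0.03, SE 0.12, edgeR adjusted p 0.922), and junction counts cannot read the K700E base. Alignment output, per the file headers, was in 3 folders: 1 for day 4, and at day 8 separate ones for each label, so folder and label cannot be told apart at day 8. Unannotated junctions with a single read made up 3.84% and 5.49% of unannotated junctions in the libraries labelled WT at day 8, and 25.9% to 37.9% in the other 6. Unique junction reads ranged from 49338071 to 77750812 per library. Of 10 erythroid markers 8 or 9 reached 1 CPM in every library (GATA1 122 to 213 CPM); a label calls the cells epithelial, and 4 or 5 of 7 epithelial markers reached 1 CPM in every library. KRT18 had 216 to 1192 CPM and EPCAM 6.90 to 112 CPM, while CDH1 and CLDN4, which define epithelial cell contacts, stayed at or below 0.042 CPM.

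In the library labelled WT day 8 replicate 1, 24 more reads of the exon 4 donor ended 30 nt upstream of the reference acceptor, at position 90560245, a junction with 0 reads in the other 7 libraries. It was chosen for mention after its values were seen. In WT day 4 replicate 1, 3 reads joined exon 4 to exon 6. No other acceptor was used from this donor.

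The 5 junctions of other genes whose use was most like that of the MAP3K7 cryptic acceptor were picked by Pearson r over the 8 libraries among 13783 junctions, with 1 per gene, at least 20 donor reads in each library and a span of at least 20 points. They were in ZNF410 (r 0.996), ZNF124 (0.996), MIR548XHG (0.996), SH2D2A (0.996) and RNF2 (0.995). In ZNF410 the acceptor was 21 nt upstream of the reference, in SH2D2A 18 nt, in RNF2 14 nt, in ZNF124 46 nt and in MIR548XHG 1715 nt. The SH2D2A acceptor took 47.0% and 43.3% in K700E and 3.23% and 0.633% in WT at day 4, and 10.1% and 42.8% in the libraries labelled K700E and 3.52% and 60.4% in those labelled WT at day 8. These r values describe 8 libraries that fall into 2 clusters, and the junctions were chosen for them.

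Exon 12 of MAP3K7 (chr6:90544552-90544632, 81 nt, coding) is an annotated alternative exon whose length keeps the reading frame. Its sequence, from the GENCODE release 29 transcript on the minus strand, is shown as the stretch that 7% to 26% of the spliced reads include.
MAP3K7 exon 12: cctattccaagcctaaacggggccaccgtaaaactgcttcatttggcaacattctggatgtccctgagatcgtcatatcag
Inclusion at day 4 was 13.9% and 7.26% in K700E and 20.4% and 21.0% in WT, without overlap. The mean was 10.6% ± 4.70 in K700E and 20.7% ± 0.405 in WT (SD, n = 2 each). The junction into the exon was lower by 8.49 points (unadjusted p 0.0367, edgeR adjusted p 0.619) and the junction out of it by 11.5 points (unadjusted p 0.0117, adjusted p 0.52), so neither was called. At day 8 inclusion was 13.5% and 26.1% in the libraries labelled K700E and 15.95% and 7.67% in those labelled WT, and the groups overlapped. Of the libraries with high cryptic use at day 8, the one labelled K700E had the most exon 12 inclusion and the one labelled WT the least.

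Exon 4 was skipped by a few reads, most of them in K700E at day 4. Of the exon 3 donor reads, 21 of 496 (4.23%) and 13 of 274 (4.74%) skipped exon 4 in K700E and 5 of 439 (1.14%) and 1 of 409 (0.244%) in WT, and 4 of the K700E reads went to the cryptic acceptor. At the exon 3 donor the skipping junction to the reference acceptor was higher by 3.39 points (unadjusted p 0.0120, edgeR adjusted p 0.344), which is no call. At the acceptor of exon 5 its share was 8.39 points higher (unadjusted p 0.000786, adjusted p 0.203), where the acceptor had 199 and 132 reads in all in K700E and 367 and 399 in WT. At day 8 the libraries labelled K700E had 0 of 315 and 5 of 249 skipping reads, and those labelled WT 0 of 265 and 0 of 266. By counting error alone, the counts of 0 allow shares of up to 0.952%, 1.13% and 1.13%. Skipping of exon 4 is unannotated, and unannotated junctions with a single read were scarce in both libraries labelled WT at day 8. Whether low counts are missing there was not tested, so the limits of 1.13% may be too low. This junction ranked below the 20 most used alternatives and was chosen after its values were seen. Exon 16 (116 nt) was skipped in 4.2% and 8.0% of donor reads in K700E and 3.3% and 3.6% in WT at day 4, 2.7 points higher (edgeR adjusted p 0.905).

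**Figure D2:**
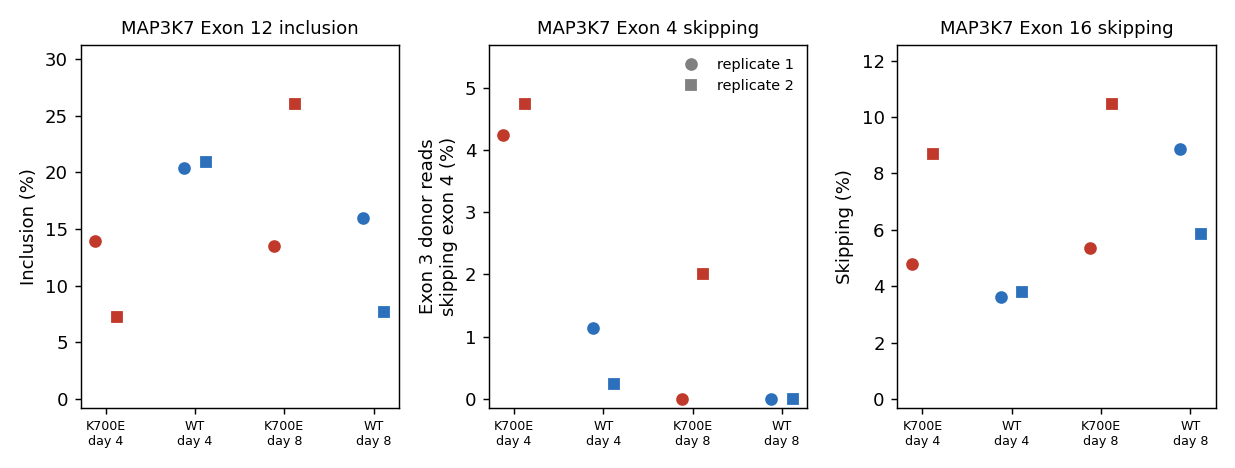
Exon choice in MAP3K7 by library (points; circles replicate 1, squares replicate 2) and labelled group (x axis). The y axes give the percent of reads that include exon 12, the percent of exon 3 donor reads that skip exon 4 and the percent of exon 16 reads that skip it, with inclusion averaged over the junctions into and out of the exon. Exon 4 skipping is above 4% in both K700E libraries at day 4 and below 2% in both WT libraries.

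MAP3K7 as a gene had 119 and 111 CPM in K700E and 158 and 151 CPM in WT at day 4, counted over annotated introns and so without the cryptic reads. Both K700E libraries were below both WT libraries. The mean was 115 ± 5.14 CPM in K700E and 155 ± 4.96 CPM in WT (SD, n = 2 each), a log2 change of -0.41 (SE 0.12, edgeR adjusted p 0.153), which edgeR did not call. DESeq2 called it with an adjusted p of 0.0457. With unannotated junctions counted in, the level was 125 and 116 CPM in K700E and 161 and 153 CPM in WT, and the log2 change was -0.37 (edgeR adjusted p 0.179). Introns away from the cryptic site were lower as well: introns 1 to 3 averaged 5.92 and 5.23 CPM in K700E and 8.36 and 6.89 in WT, and introns 5 to 10 averaged 7.36 and 7.01 in K700E and 9.58 and 9.94 in WT. In bulk RNA, fewer cells with a transcript and less of it per cell cannot be told apart.

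At day 8 MAP3K7 had 129 and 91.4 CPM in the libraries labelled K700E and 123 and 89.1 CPM in those labelled WT, so each label again held 1 higher and 1 lower library. The log2 change was 0.01 (SE 0.29, edgeR adjusted p 1.00), and it lay on the other side of 0 with DESeq2 size factors. The libraries labelled K700E with 14.7% and 62.4% cryptic use had 129 and 91.4 CPM, and those labelled WT with 9.42% and 77.2% use had 123 and 89.1 CPM. Cryptic use fell into 2 clusters of libraries, so no correlation over the 8 is given. The 3 genes whose level was most like that of MAP3K7 over 8 libraries, among 14902 genes, were STAG3L4 (Pearson r 0.986 on the log2 scale, pseudocount 0.1 CPM), SLCO4C1 (0.986) and PPP2R5A (0.985), a description with no test.

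**Figure D3:**
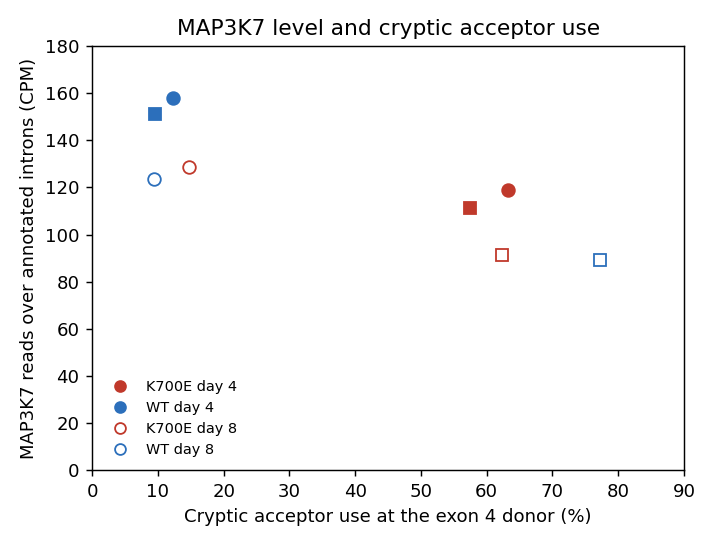
MAP3K7 level (y axis, CPM over annotated introns) against cryptic acceptor use (x axis, percent of exon 4 donor reads) in each library, with filled points for day 4, open points for day 8, circles for replicate 1 and squares for replicate 2. Use lies below 15% or above 57%, and the levels run from 89.1 CPM at 77.2% use to 158 CPM at 12.2% use.

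None of the 9 genes was called between K700E and WT at day 4 by edgeR, where 0.529% of 13991 genes were. Of the 9, 3 had an unadjusted p under 0.05, all lower in K700E (MAP3K7, NFKBIA and CXCL8), against 21.3% of all genes in either direction and 10.5% lower. Both K700E libraries were above both WT libraries for 4 members, where 26.4% of all genes were, and below for 4, where 28.2% were. RELA overlapped. DESeq2 called MAP3K7 and CXCL8 lower, where it called 12.4% of genes.

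None of the genes of the TAK1-binding proteins was called at day 4. TAB1 (ENSG00000100324.13, chr22:39399741-39437060) had 18.4 and 18.0 CPM in K700E and 16.2 and 11.99 CPM in WT, a log2 change of 0.39 (SE 0.22, edgeR adjusted p 0.375). TAB2 (ENSG00000055208.18, chr6:149218641-149411613), an adaptor that binds ubiquitin chains, had 92.5 and 148 CPM in K700E and 84.1 and 84.7 CPM in WT. The second K700E library stood far above the other 3, and the log2 change was 0.53 (SE 0.24, edgeR adjusted p 0.275). TAB3 (ENSG00000157625.15, chrX:30827442-30975084), the paralogue of TAB2, had 43.0 and 39.8 CPM in K700E and 44.3 and 43.5 CPM in WT, a log2 change of -0.07 (SE 0.14, edgeR adjusted p 0.81).

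At day 8 TAB2 was the member with the smallest p. It had 48.7 and 39.7 CPM in the libraries labelled K700E and 73.9 and 84.5 CPM in those labelled WT, without overlap. The log2 change was -0.88 (SE 0.23, unadjusted p 0.0119, edgeR adjusted p 1.00), and the day 8 change minus the day 4 change was -1.35 (SE 0.34, unadjusted p 0.00520, edgeR adjusted p 0.472). TAB1 spread widely at day 8, with 19.7 and 22.9 CPM in the libraries labelled K700E and 12.8 and 25.5 CPM in those labelled WT. TAB3 had 35.1 and 42.1 CPM in the libraries labelled K700E and 60.9 and 34.0 CPM in those labelled WT.

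Of the NF-kB subunits, NFKB1 (ENSG00000109320.11, chr4:102501329-102617302), the precursor of p50, had 40.1 and 47.1 CPM in K700E and 38.2 and 37.7 CPM in WT at day 4 (log2 0.22, SE 0.15, edgeR adjusted p 0.474). NFKB2 (ENSG00000077150.18, chr10:102394110-102402529), the precursor of p52, had 69.6 and 84.4 CPM in K700E and 58.6 and 63.8 CPM in WT (log2 0.35, SE 0.15, edgeR adjusted p 0.266). RELA (ENSG00000173039.18, chr11:65653596-65663094) had 62.6 and 59.8 CPM in K700E and 70.1 and 61.8 CPM in WT (log2 -0.09, SE 0.14, edgeR adjusted p 0.737). Both NFKB genes were higher in each K700E library and RELA overlapped, with no call for any of them. At day 8 NFKB1 had 43.3 and 34.3 CPM in the libraries labelled K700E and 54.8 and 45.5 CPM in those labelled WT. NFKB2 had 52.3 and 69.4 CPM in the libraries labelled K700E and 53.6 and 103 CPM in those labelled WT. RELA had 74.7 and 102 CPM in the libraries labelled K700E and 113 and 113 CPM in those labelled WT, with log2 changes of -0.41, -0.39 and -0.39 for NFKB1, NFKB2 and RELA.

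The inhibitor and the target were both lower in K700E at day 4 without reaching the threshold. NFKBIA (ENSG00000100906.10, chr14:35401511-35404749) had 12.4 and 13.8 CPM in K700E and 26.7 and 16.5 CPM in WT. The means were 13.1 ± 0.962 CPM in K700E and 21.6 ± 7.18 CPM in WT (SD, n = 2 each), a log2 change of -0.71 (SE 0.28, unadjusted p 0.0478, edgeR adjusted p 0.230). Without WT day 4 replicate 1 the change was -0.32.

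CXCL8 (ENSG00000169429.10, chr4:73740506-73743716) had the largest change of the 9. It had 153 and 52 junction reads, or 2.11 and 0.859 CPM, in K700E and 436 and 378 reads, or 8.24 and 6.12 CPM, in WT. Both K700E libraries were below both WT libraries by more than the spread within either group. The log2 change was -2.25 (SE 0.49, unadjusted p 0.00432, edgeR adjusted p 0.107), and DESeq2 called it with an adjusted p of 0.000456. It was -3.04 without K700E day 4 replicate 1 (edgeR adjusted p 7.86e-05) and -1.76 without K700E day 4 replicate 2 (adjusted p 0.00425). Without either WT library the adjusted p was 0.506 and 0.487.

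At day 8 CXCL8 and NFKBIA did not separate by label. CXCL8 had 1.32 and 2.13 CPM in the libraries labelled K700E and 3.26 and 1.44 CPM in those labelled WT (log2 -0.48, SE 0.67, edgeR adjusted p 1.00). NFKBIA had 27.3 and 32.3 CPM in the libraries labelled K700E and 32.7 and 31.5 CPM in those labelled WT (log2 -0.14, SE 0.22, edgeR adjusted p 1.00). Of the 9 genes 0 were called at day 8 by edgeR or DESeq2 and 1, TAB2, had an unadjusted p under 0.05, against 0% of all genes called by edgeR, 0.143% by DESeq2 and 2.92% unadjusted. The libraries labelled K700E were both below those labelled WT for 3 members (TAB2, NFKB1 and RELA), where 13.2% of all genes were, and both above for 0, where 19% were. Over both days, too, 0 members were called by edgeR or DESeq2, and the 1 with an unadjusted p under 0.05 was CXCL8 (log2 -1.36, SE 0.43, p 0.0145, edgeR adjusted p 0.535), against 0% of all genes called by edgeR, 0.732% by DESeq2 and 9.28% unadjusted. For the day difference 0 members were called by edgeR and 1, TAB2, by DESeq2 and at an unadjusted p under 0.05, against 0%, 1.38% and 9.2% of all genes.

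**Figure D4:**
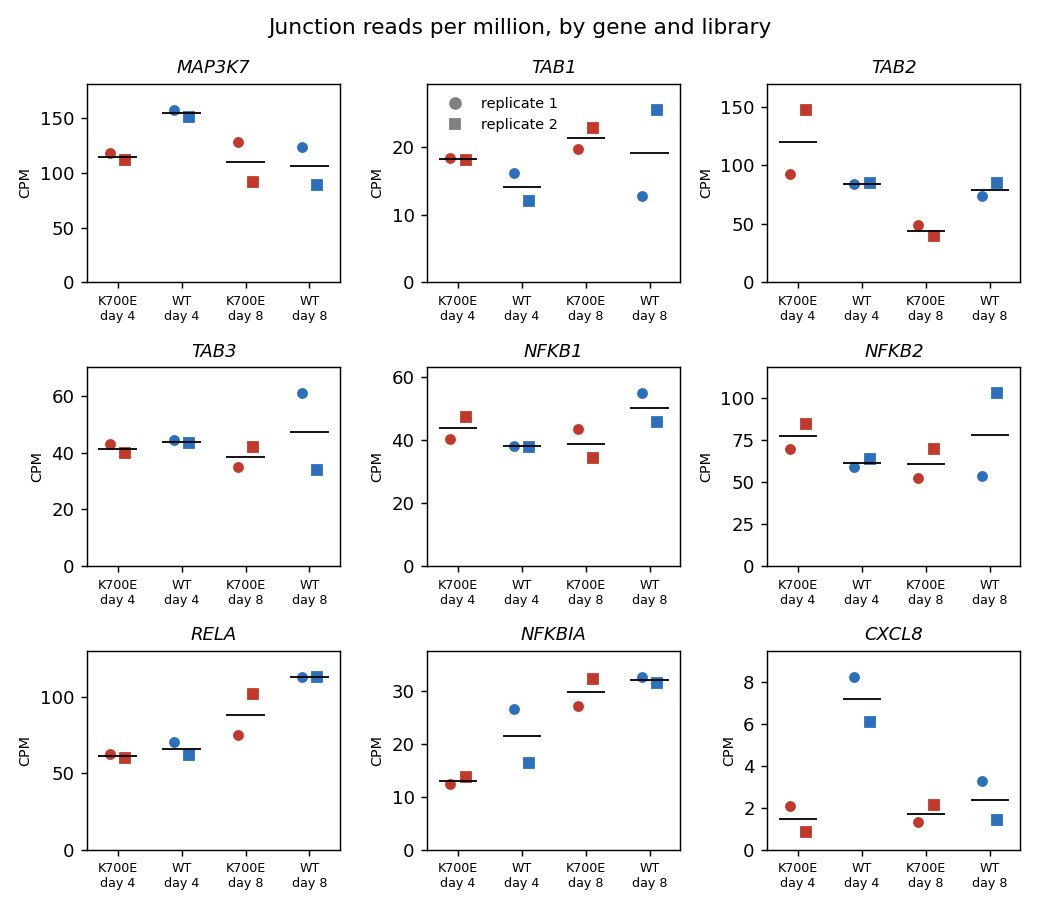
Level of the 9 genes (y axes, CPM, each from 0) in each library, by labelled group (x axis). Points are libraries, circles for replicate 1 and squares for replicate 2, and lines are group means. At day 4 MAP3K7 and CXCL8 are lower in both K700E libraries than in both WT libraries, and at day 8 TAB2 is lower in both libraries labelled K700E.

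The promoter stretches of CXCL8 and NFKBIA are shown because these 2 NF-kB targets were the members with the 2 lowest log2 changes at day 4. Capitals mark matches to GGAANTTCC or GGANTTTCC, 2 forms of the κB motif, searched on both strands over 250 bases before to 50 after each start in RefSeq (GRCh38.p14).
CXCL8, chr4:73740458-73740506, plus strand: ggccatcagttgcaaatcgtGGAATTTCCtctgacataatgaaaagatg
NFKBIA, chr14:35404802-35404999, minus strand: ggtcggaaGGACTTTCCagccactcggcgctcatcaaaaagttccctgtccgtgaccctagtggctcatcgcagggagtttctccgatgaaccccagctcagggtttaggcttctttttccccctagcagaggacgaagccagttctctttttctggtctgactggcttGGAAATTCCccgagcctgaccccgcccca
The CXCL8 match starts 91 bases before the RefSeq start of the window, which lies inside the longer GENCODE span given for the gene, and fits both forms at the same place. The NFKBIA matches start 242 and 81 bases before the RefSeq start, and the second fits the 2 forms on opposite strands. Of 14 windows for the 9 genes 4 held a match, 1 each for CXCL8, NFKBIA, NFKB1 and NFKB2. Of all 35116 windows 0.965% held the first form, 1.64% the second and 2.14% either. A match describes these letters only.

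With the cryptic junction included, 167 junctions of the 9 genes reached 5 unique reads in 2 or more libraries. Of these 128 were in GENCODE release 29 and 39 were not. Beyond the cryptic junction, alternatives that reached 5% of a donor's or acceptor's reads in some library numbered 34. The 20 most used are described here. CXCL8 and NFKBIA had none. Unannotated junctions carried 2.86% of the reads of MAP3K7, with the cryptic junction included. They carried 2.90% of the reads of TAB3, 1.21% of TAB2 and under 1% of each of the other 6 genes.

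Pairs of acceptors 3 nt apart in NFKB1 and NFKB2 were among the 3 most used alternatives. They are shown as the exon starts they share, from the GENCODE release 29 transcripts on the plus strand, with the 3 bases that only the upstream acceptor includes in capitals.
NFKB1, chr4:102533845-102533874: CAGatggcccataccttcaaatattagagc
NFKB2, chr10:102402252-102402281: CAGaggtgaaggaagacagtgcgtacggga
In NFKB1 the downstream acceptor took 50% and 32.4% of donor reads in K700E and 41.2% and 50.4% in WT at day 4, and 34.0% and 47.4% in the libraries labelled K700E and 29.2% and 41.7% in those labelled WT at day 8. In NFKB2 the junction that keeps the CAG took 31.6% and 19.3% in K700E and 19.9% and 32.8% in WT at day 4, and 32.1% and 43.7% in the libraries labelled K700E and 29.8% and 44.1% in those labelled WT at day 8. The groups overlapped in every case. The differences were -4.6 and -0.9 points at day 4, neither called (edgeR adjusted p 1 for both).

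The 5′ ends of the subunit and TAB2 genes varied most between single libraries. In NFKB1 an annotated first intron (chr4:102501789-102510879) took 38.02% of its donor in the library labelled WT day 8 replicate 1 and 0% to 11.4% in the other 7, and the next junction (chr4:102510950-102525511) took 36.7% of its acceptor there and 8.5% to 20% elsewhere. In NFKB2 a junction from an alternative first exon (chr10:102394601-102395887) took 34.5% and 22.1% of its acceptor in the libraries labelled K700E and 0% and 31.4% in those labelled WT at day 8, and 7.9% to 14.1% at day 4. Of the TAB2 alternatives, an annotated junction (chr6:149318016-149369908) took 19.8% and 14.2% in K700E and 14.3% and 9.8% in WT at day 4. The 2 unannotated TAB2 junctions among the 20 (chr6:149318783-149369908 and chr6:149318016-149342684) had at most 22 reads in any library, and the first, also among the 3, took 45.8% of the 48 reads of its donor in K700E day 4 replicate 2.

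In TAB3, exon-skipping and alternative junctions made up 5 of the 20. The unannotated junction chrX:30831576-30842965 took 9.3% and 9.0% of its donor in K700E and 10.4% and 6.9% in WT at day 4, a difference of 0.5 points. The annotated junction chrX:30836836-30842965 from the same donor took 3.4% and 6.1% in K700E and 3.8% and 6.1% in WT at day 4, and 12.1% and 13.3% in the libraries labelled K700E and 11.2% and 19.1% in those labelled WT at day 8. Both groups overlapped at each day. The annotated junction chrX:30834153-30846550 had 2.3% and 3.2% in K700E and 5.9% and 6.6% in WT at day 4 (edgeR adjusted p 0.995). The other 2, both unannotated, reached 21.99% in WT day 4 replicate 1 (chrX:30867219-30871698, 31 reads) and 30% where the acceptor had at least 20 reads (chrX:30871802-30883587, 6 reads).

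The remaining alternatives were in RELA, NFKB1 and NFKB2. In RELA an annotated junction (chr11:65655936-65659665) took 4.9% and 6.1% in K700E and 4.0% and 4.4% in WT at day 4, 1.3 points higher (edgeR adjusted p 1). Unannotated junctions of NFKB1 (chr4:102577040-102580534) and NFKB2 (chr10:102398524-102399287 and chr10:102396490-102397301) had at most 19 reads in any library. With MAP3K7 left out, 4 member junctions had an unadjusted p under 0.05 for acceptor choice at day 4, all in NFKB2 and RELA and all within 3.5 points. Of 40 member junctions tested for acceptor choice at day 8 edgeR called 0, and 1 had an unadjusted p under 0.05, against 0% called and 2.79% unadjusted over all junctions; limma called 0 of all junctions there.

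The wider pathway was counted over 5 lists. Receptors and adaptors above TAK1 gave 21 tested genes of 22, with 1 higher and 3 lower at an unadjusted p under 0.05 and a median log2 change of -0.23 at day 4. The IκB kinase and NF-kB list gave 13 of 13, with 2 higher, 0 lower and a median of 0.07. The JNK, p38 and AP-1 list gave 10 of 12, with 1 higher, 0 lower and a median of 0.04. The negative regulators gave 10 of 10, with 0 higher, 1 lower and a median of -0.24, and the target genes 13 of 22, with 3 higher, 3 lower and a median of 0.11. Over all genes the median was 0.02, with 10.8% higher and 10.5% lower at an unadjusted p under 0.05. In these 5 lists edgeR called 0 genes at day 4, where it called 0.529% of all genes, and DESeq2 called 6, where it called 12.4%.

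Single genes of these lists are given with their levels in K700E and WT at day 4. TNIP1, which binds the deubiquitinase A20 and restrains NF-kB, had 78.6 and 80.3 CPM in K700E and 141 and 128 CPM in WT (log2 -0.74, edgeR adjusted p 0.0825). All 10 negative regulators had a log2 change below 0, where 51.4% of all genes were above it, and 1, TNIP1, had an unadjusted p under 0.05. Of these regulators, only TNIP1, OTULIN, TAX1BP1 and USP18 were refitted with single libraries left out. TAX1BP1 and USP18, at -0.02 each, changed sign there, and TNIP1 and OTULIN did not. Whether the others keep their sign was not tested. IKBKB, the catalytic β subunit of the IκB kinase, had 84.4 and 88.4 CPM in K700E and 58.5 and 52.9 CPM in WT (log2 0.65, edgeR adjusted p 0.0993). CHUK, its α subunit, had 121 and 136 CPM in K700E and 89.3 and 105 CPM in WT. IRAK2, a kinase of interleukin-1 and Toll-like receptor signalling, had 5.85 and 7.02 CPM in K700E and 12.4 and 12.2 CPM in WT (log2 -0.92, edgeR adjusted p 0.118). CXCL3, a chemokine related to CXCL8, had 1.81 and 1.80 CPM in K700E and 5.499 and 4.30 CPM in WT (log2 -1.42, edgeR adjusted p 0.101). TNIP1, IKBKB, CHUK, IRAK2 and CXCL3 were each apart between K700E and WT without overlap, as were 54.7% of all genes at day 4. TAX1BP1 and USP18 overlapped. All the genes of this paragraph were named as the highest or lowest changes of their lists.

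DESeq2 called TNIP1, IRAK2, CXCL3 and VEGFA lower and IKBKB and BCL2L1 higher; VEGFA and BCL2L1 were named after their values were seen. TGFBR1, a TGF-β receptor above TAK1, had 94.9 and 161 CPM in K700E and 80.3 and 77.6 CPM in WT. FOS, a part of AP-1, had 6.98 and 3.50 CPM in K700E and 11.1 and 8.87 CPM in WT, and MAP2K3, a kinase above p38, had 14.2 and 18.8 CPM in K700E and 11.9 and 8.997 CPM in WT. PTGS2, the inducible cyclooxygenase, had 0.373 and 0.942 CPM in K700E and 2.12 and 1.78 CPM in WT, while SOD2, a mitochondrial superoxide dismutase, had 3.20 and 3.603 CPM in K700E and 1.87 and 2.01 CPM in WT. IL1B, a cytokine, had 22 and 34 reads in K700E and 2 and 0 reads in WT, too few in WT for a fold. Target genes thus lay on both sides of 0. The other genes that the 2 highest and 2 lowest changes of each list select were IL1R1, BIRC3, RELB, CUL1, MAPK8, MAPKAPK2 and OTULIN, with log2 changes from -0.91 to 0.55 and no call by either tool at day 4. Outside day 4, DESeq2 called BIRC3 lower at day 8 and in the day difference, and TNIP1 lower over both days. Of all genes DESeq2 called 0.143% at day 8, 1.38% for the day difference and 0.732% over both days. There edgeR called no list gene, and 0% of all genes.

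Markers of other cell types are given beside these values. The megakaryocyte list summed to 126 and 124 CPM in K700E and 12.6 and 23.9 CPM in WT at day 4, with 3 of 7 markers tested, 3 higher at an unadjusted p under 0.05 and 1, ITGA2B, called (98.2 and 99.2 CPM in K700E, 11.9 and 21.1 CPM in WT, edgeR adjusted p 0.0418). The erythroid list summed to 1836 and 970 CPM in K700E and 2350 and 1892 CPM in WT. Of its 10 markers 9 were below 0, and 2 were lower at an unadjusted p under 0.05. GATA1 went the other way, with 160 and 147 CPM in K700E and 134 and 122 CPM in WT, and was not called. The myeloid list, a lineage known to make CXCL8, summed to 106 and 156 CPM in K700E and 141 and 130 CPM in WT and overlapped. The epithelial list summed to 688 and 488 CPM in K700E and 868 and 987 CPM in WT, with 5 of 5 tested markers below 0; 3 had an unadjusted p under 0.05, and edgeR made 0 calls among them. Their part in the levels of the 9 genes was not tested.

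**Figure D5:**
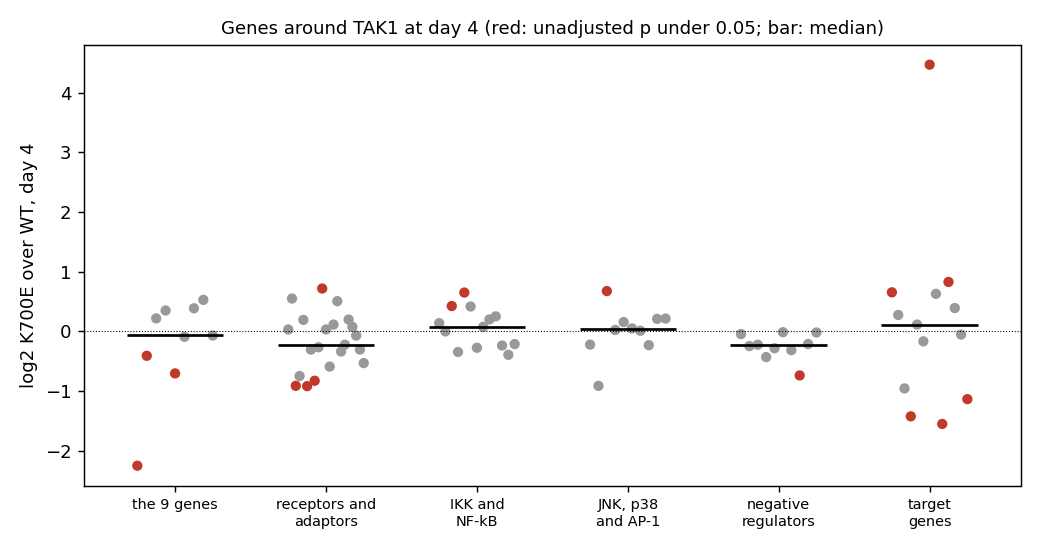
log2 change of K700E over WT at day 4 (y axis) for each tested gene of the 9 and of 5 lists of genes around TAK1 (x axis). Points are genes, red where the unadjusted edgeR p is under 0.05, and bars are list medians, which lie between -0.24 and 0.11. The highest point is IL1B, with 2 and 0 reads in WT, and the lowest of the 9 genes is CXCL8.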

How the data were processed

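The submitters' processing notes name cutadapt, STAR and the hg38 build. Per the file headers, the aligner was STAR 2.7.0e, run end to end in 1 pass with the same settings in every library, on an index with GENCODE release 29 junctions and with release 22 added at mapping. Libraries were strand-specific, per the labels. The deposited values are raw counts of uniquely and multi-mapped reads per junction, and unique reads were used. Junctions shared by the introns of more than 1 gene (4.17% of unique reads) were left out of gene sums.

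Tested junctions had 5 reads in 2 or more libraries and shared a site, of mean 20 reads or more, with another such junction. They were fitted with edgeR 4.0.16 (glmQLFit, diffSpliceDGE) within each day, grouped by shared donor (acceptor choice) or acceptor (donor choice). Calls needed a Benjamini-Hochberg adjusted p under 0.05 and 5 points. Genes were tested by the edgeR quasi-likelihood test with TMM and filterByExpr. The model of all 8 libraries gave the mean of both days and the day difference. Levels are CPM with TMM factors over all 8 libraries; junction reads per gene grow with its number of introns, so levels are not compared between genes. limma 3.58.1 and DESeq2 1.42.0 (R 4.3.3), RLE size factors, no filter, multi-mapped reads, a replicate block and leaving out each library were tried. Wilson intervals used scipy 1.17.1. The steps were tested on simulated counts for the day 4 libraries, with the same spread for all genes. Of 100 genes changed 2-fold 10 were called, and of 100 changed 4-fold 87 were. Of 100 junctions moved by 20 points 73 were called, and of 100 moved by 40 points 91 were. These junctions were at donors with 2 junctions and a mean of at least 100 reads. Their counts had a fixed spread that was not estimated from these data. Recovery of junctions at the spread of these libraries was not tested. A missing gene call at day 4 thus does not show that a level is unchanged.

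The members, gene lists and rules were chosen with earlier results of these data known. Named were the 9 genes, the cryptic and reference junctions, other member junctions by largest share (up to 20), and in each list the called genes, otherwise the 2 highest and 2 lowest changes at day 4. All groups follow the labels, and an exchange of the libraries labelled K700E and WT that go against their labels at day 8 was not tested.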

Additional observations from a re-analysis of the deposited data

Results flagged for a closer look

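TAB2 was flagged because both K700E libraries were above both WT libraries at day 4 and both libraries labelled K700E were below both labelled WT at day 8. The day 8 change minus the day 4 change was -1.35 on the log2 scale (unadjusted p 0.00520, edgeR adjusted p 0.472; DESeq2 adjusted p 0.0314). NFKB1 was flagged for the same crossing, with -0.57 on the log2 scale (unadjusted p 0.0799, edgeR adjusted p 0.577). Of the 4 day 8 libraries behind these values, 2 (labelled K700E replicate 1 and WT replicate 2) go against their labels in cryptic acceptor use.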

How the results depend on the processing

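Direction and side of the threshold held under most alternatives, though most of these results had no call to lose. Counts of calls at day 4 moved under many of the alternatives. Day 4 cryptic acceptor use differed by 46.7 to 52.4 points with each library left out, and by 49.5 points with all 8 libraries in 1 model, where it was not called. The day 8 difference ran from -38.7 to 29.1 points. At day 4, 326 junctions were called for acceptor choice, 8 to 110 with single libraries left out and 0 with 8 libraries in 1 model. For donor choice 20 were called, 0 to 58 with single libraries left out, 0 with 8 libraries, 81 with limma, 36 with no filter and 8 with a replicate block. Of genes 74 were called, 0 to 2536 with single libraries left out, 0 with 8 libraries, 1640 with DESeq2, 1567 with no filter and 126 with the block. DESeq2 called 20 genes at day 8, 107 over both days and 193 for the day difference, where edgeR called 0. Over both days acceptor calls numbered 1 with the block and 0 to 495 with single libraries left out (495 without WT day 8 replicate 2), and for the day difference 0 to 38. The labels do not say that replicate numbers pair libraries, and with 2 pairs the correlation of same-numbered deviations was 0.0964 at day 4 and 0.246 at day 8. The block put the reference acceptor of MAP3K7 past the threshold (edgeR adjusted p 0.0451) and NFKB2 over both days at 0.012 on the log2 scale. MAP3K7 at day 8 was -0.00139 with DESeq2 and -0.00136 with RLE factors. Results that changed sign with a library left out had these log2 ranges. They were -0.60 to 1.18 for BIRC3 (day 4), -0.95 to 0.24 for CXCL8 (day 8), -0.25 to 0.28 for MAP3K7 (day 8), -0.69 to 0.11 for MAPK8 (day 4), -0.21 to 0.26 for NFKB2 (both days) and -0.78 to 0.15 for NFKB2 (day 8). Further ranges were -1.26 to 0.14 for RELB (day 4), -0.29 to 0.70 for TAB1 (day 8), -0.63 to 0.38 for TAB1 (interaction), -0.37 to 0.050 for TAB3 (both days), -0.69 to 0.16 for TAB3 (day 8) and -0.56 to 0.28 for TAB3 (interaction). The last were -0.18 to 0.16 for TAX1BP1 (day 4) and -0.44 to 0.30 for USP18 (day 4). For junction shares, in points, they were -1.86 to 2.54 for MAP3K7 chr6:90516682-90519257 (day 8), -20.4 to 38.7 for MAP3K7 chr6:90560215-90561621 (day 8), -23.6 to 4.49 for NFKB1 chr4:102510950-102525511 (day 8), -13.4 to 4.17 for NFKB1 chr4:102529915-102533847 (day 4), -1.43 to 11.9 for NFKB1 chr4:102529915-102533847 (day 8) and -3.69 to 1.78 for NFKB2 chr10:102394601-102395887 (day 4). Others were -3.14 to 28.3 for NFKB2 chr10:102394601-102395887 (day 8), -7.42 to 5.56 for NFKB2 chr10:102402160-102402251 (day 4), -6.19 to 8.14 for NFKB2 chr10:102402160-102402251 (day 8), -3.22 to 1.06 for RELA chr11:65655936-65659665 (day 8), -3.96 to 9.15 for TAB2 chr6:149318016-149369908 (day 8) and -1.23 to 2.3 for TAB3 chrX:30831576-30842965 (day 4). The rest were -3.39 to 3.54 for TAB3 chrX:30834153-30846550 (day 8), -1.53 to 1.19 for TAB3 chrX:30836836-30842965 (day 4), -6.39 to 1.46 for TAB3 chrX:30836836-30842965 (day 8) and -14.6 to 0.463 for TAB3 chrX:30867219-30871698 (day 4). Where an arm kept 1 library, it was assumed to vary like the others. The cause of these changes was not tested. With 210 to 485 reads at the exon 4 donor, single-library use is known to within several points.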
